A study of Mus musculus with 15 samples.

Results

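This report describes 9 genes that guide white blood cells into lymphoid tissue, measured in the colon of mice that lacked NEMO in the gut epithelium. They are the chemokines Ccl19, Ccl20, Ccl22, Cxcl12 and Cxcl13 and the chemokine receptors Ccr6, Ccr7, Cxcr4 and Cxcr5. The members were taken by gene symbol, and each had 1 probe set among the 19527 probe sets of the array that carried 1 gene symbol. Whole colon tissue of 15 mice aged 11 weeks was hybridised to Clariom S mouse arrays from 100 ng of total RNA each. NEMO, encoded by Ikbkg, is the regulatory subunit of the kinase complex that switches on NF-κB, and RIPK1 is a kinase that can start inflammatory cell death. NEMO FL mice (5 mice, numbered 6 to 10) carried the floxed Nemo allele without its deletion. NEMO IEC-KO mice (mice 11, 12, 13, 15 and 18) had wild-type Ripk1 and lost NEMO in intestinal epithelial cells, where the Villin promoter drives Cre. NEMO IEC-KO Ripk1 S166A/S166A mice (mice 1 to 5, called S166A mice here) had the same deletion and carried in all cells a RIPK1 in which serine 166 was replaced by alanine. The comparisons ask what loss of epithelial NEMO did to the tissue and what blocking this phosphorylation site changed in it.

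Chemokines are small secreted proteins that draw in cells bearing the matching receptor. In lymphoid follicles, including the patches and isolated follicles of the colon, CXCL13 from stromal cells calls CXCR5-bearing B cells and follicular helper T cells. CCL19 and CCL21 call CCR7-bearing T cells and dendritic cells, and CCL20 from the epithelium over follicles calls CCR6-bearing B cells and dendritic cells. CXCL12 holds CXCR4-bearing leukocytes and precursor cells in place in many tissues, and CCL22, made mainly by dendritic cells and macrophages, calls CCR4-bearing T cells.

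The label of mouse 10 was contradictory. Its title placed it with the NEMO FL mice and its genotype field with the NEMO IEC-KO mice, and it was grouped by title. The Ikbkg probe set read 6.28 in mouse 10 on the log2 scale. The other NEMO FL mice read 6.18, 6.55, 6.38 and 6.50, while the NEMO IEC-KO mice lay between 4.85 and 5.30 and the S166A mice between 5.23 and 5.43. Mouse 10 therefore lay with the NEMO FL mice and outside both deleted groups. The position of the Ikbkg probes relative to the floxed exons is not given in the sources used here. Judged by Y chromosome genes, 1 of 5 NEMO FL mice (mouse 10), 2 of 5 NEMO IEC-KO mice (13 and 15) and 5 of 5 S166A mice were male, so sex and genotype could be told apart only in part. Array medians ran from 6.27 to 6.36. Values spread less on the arrays of S166A mice 1 and 2 (interquartile range 3.01 and 3.06) than on the other arrays (3.22 to 3.40). Nothing in the labels ties samples to an array batch. In whole tissue, fewer cells of a type and less RNA per cell cannot be told apart.

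The promoters of 4 members are shown because NEMO is part of the kinase complex that switches on NF-κB. NEMO was deleted in intestinal epithelial cells, and a direct effect on these promoters was not tested. The RefSeq promoter table (GRCm38.p6, 250 bases before to 50 after the start site) held 7 of the 9 members. Each window was searched on both strands for the NF-κB consensus, named rather than spelled because it uses degenerate letters. Matches are in capitals, and 8.46% of all 32851 promoters in the table held at least 1. Ccl22 and Cxcr4 are shown as members that were higher in NEMO IEC-KO mice, and Ccl20 and one of the start sites of Ccr6 as the windows with a match.
Ccl22 (chr8:94745434-94745733, + strand): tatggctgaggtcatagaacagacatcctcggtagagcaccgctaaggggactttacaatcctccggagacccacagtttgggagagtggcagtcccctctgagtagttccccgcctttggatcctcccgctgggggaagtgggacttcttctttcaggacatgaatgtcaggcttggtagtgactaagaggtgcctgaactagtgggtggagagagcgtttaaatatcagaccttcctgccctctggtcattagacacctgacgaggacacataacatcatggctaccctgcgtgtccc
Cxcr4 (chr1:128592250-128592549, - strand): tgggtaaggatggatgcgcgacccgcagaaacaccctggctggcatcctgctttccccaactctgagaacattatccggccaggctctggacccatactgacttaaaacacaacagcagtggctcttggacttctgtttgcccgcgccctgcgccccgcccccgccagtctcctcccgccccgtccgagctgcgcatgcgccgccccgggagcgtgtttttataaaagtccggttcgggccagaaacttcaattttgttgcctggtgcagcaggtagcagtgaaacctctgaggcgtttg
Ccl20 (chr1:83116516-83116815, + strand): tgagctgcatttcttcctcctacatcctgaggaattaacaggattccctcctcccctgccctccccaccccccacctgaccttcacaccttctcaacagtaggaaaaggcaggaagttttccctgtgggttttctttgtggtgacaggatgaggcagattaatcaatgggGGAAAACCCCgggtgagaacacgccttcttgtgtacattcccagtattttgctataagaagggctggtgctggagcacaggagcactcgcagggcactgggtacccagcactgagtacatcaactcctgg
Ccr6 (chr17:8242276-8242575, + strand): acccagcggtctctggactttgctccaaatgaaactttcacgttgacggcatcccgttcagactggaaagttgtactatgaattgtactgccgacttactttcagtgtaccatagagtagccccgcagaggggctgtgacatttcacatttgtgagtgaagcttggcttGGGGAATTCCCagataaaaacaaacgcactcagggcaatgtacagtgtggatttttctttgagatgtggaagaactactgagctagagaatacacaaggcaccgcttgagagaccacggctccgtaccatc

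The match in Ccl20 began 80 bases before the start site, on the opposite strand. The capitals in Ccr6 hold 2 overlapping matches, which began 81 and 80 bases before that start site. No match was found in these windows of Ccl19, Ccl22, Cxcl12, Cxcl13 and Cxcr4 or at the other start site of Ccr6. A match in letters is not evidence of a bound site, and its absence here says nothing about sequence outside the window. Neither Ccl20 nor Ccr6 passed the test in any comparison.

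**Figure D1:**
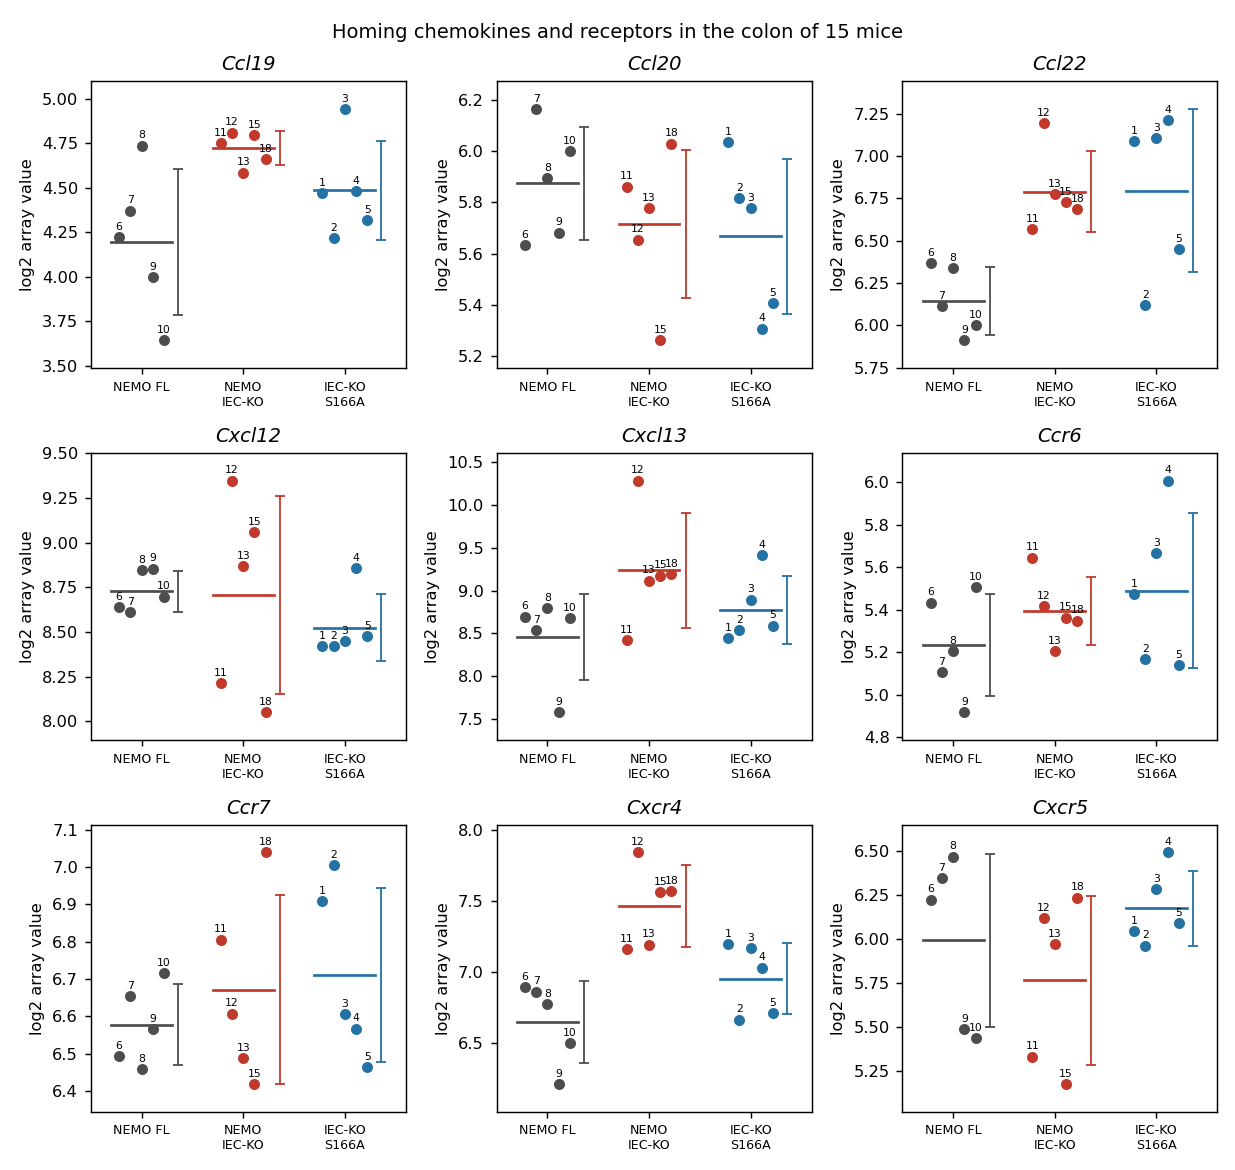
Each panel plots the log2 array value (vertical axis) of 1 gene in 15 mice, grouped by genotype, with mouse numbers beside the points, a line at the group mean and a bar of ± 1 SD. Ccl22 and Cxcr4 of all 5 NEMO IEC-KO mice lie above all 5 NEMO FL mice, and mouse 9 is the lowest NEMO FL mouse for Ccl22, Cxcl13, Ccr6 and Cxcr4.

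Loss of NEMO in the epithelium was accompanied by higher Cxcr4, Ccl22 and, at a low signal, Ccl19 in the colon. These were 3 of 9 members at an adjusted p under 0.05 (limma, Benjamini-Hochberg over 22142 probe sets), all higher, where 11.6% of all probe sets were called higher and 25.4% were called in either direction. The median difference of the 9 members was 0.16 on the log2 scale, against 0.01 over all probe sets, and the median size of the difference regardless of sign was 0.23 against 0.21. The other 6 members did not pass.

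Among the ligands, Ccl22 read 6.37, 6.11, 6.34, 5.91 and 6.00 in NEMO FL mice 6, 7, 8, 9 and 10. It read 6.57, 7.19, 6.77, 6.73 and 6.69 in NEMO IEC-KO mice 11, 12, 13, 15 and 18. The groups did not overlap, which held for 2 of 9 members (Ccl22 and Cxcr4) and, with the same direction, for 8.04% of all probe sets. The mean rose from 6.15 ± 0.20 (SD, n = 5) to 6.79 ± 0.24, a difference of 0.64 ± 0.14 (SE) or 1.56-fold, with a 95% interval of 1.27 to 1.92 (limma adjusted p = 0.00303). The exact two-sided permutation test gave p = 0.00794, the smallest that 5 against 5 mice allow.

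Ccl19, one of the ligands of CCR7, read 4.22, 4.37, 4.74, 4.00 and 3.64 in NEMO FL mice 6 to 10. It read 4.75, 4.81, 4.59, 4.80 and 4.66 in NEMO IEC-KO mice 11, 12, 13, 15 and 18. The NEMO IEC-KO mice lay close together, within an SD of 0.10, and NEMO FL mouse 8 reached into their range. The difference was 0.53 ± 0.17 (SE), 1.44-fold (limma adjusted p = 0.0291, exact permutation p = 0.0238). This call was lost when any of 5 mice was left out. The adjusted p was then 0.0774 without NEMO FL mouse 9, 0.0637 without NEMO FL mouse 10, 0.0515 without NEMO IEC-KO mouse 11, 0.0535 without mouse 12 and 0.0603 without mouse 15. The mouse genome holds near-identical copies of Ccl19, among them Gm2023 and several pseudogenes, so its signal may be shared between them. The signal was also low, with a mean over all mice at percentile 22.98 of the probe sets. For scale, Y chromosome genes read up to 3.97 in mice judged female, above the 3.64 of Ccl19 in NEMO FL mouse 10.

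Cxcl13, the B cell attractant of follicles, had the second largest mean difference of the 9 members but a wide spread. It read 8.70, 8.54, 8.80, 7.58 and 8.68 in NEMO FL mice 6 to 10. It read 8.42, 10.28, 9.12, 9.18 and 9.19 in NEMO IEC-KO mice 11, 12, 13, 15 and 18. All NEMO IEC-KO mice but mouse 11 lay above every NEMO FL mouse, and mouse 12 stood more than a full log2 unit above its group's other mice. The difference of 0.78 ± 0.29 (SE) had a 95% interval of 0.17 to 1.39 and did not pass the test (limma adjusted p = 0.0584, exact permutation p = 0.0397). Without NEMO IEC-KO mouse 11 it was 0.98 with an adjusted p of 0.0158.

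Cxcl12 and Ccl20 showed no difference beyond their spread. Cxcl12, the ligand of CXCR4, had a mean of 8.73 in NEMO FL mice and 8.71 in NEMO IEC-KO mice (95% interval of the difference -0.46 to 0.42, limma adjusted p = 0.959). The spread differed, with an SD of 0.11 in NEMO FL mice and 0.56 in NEMO IEC-KO mice, where mice 11 and 18 read 8.21 and 8.05 and mice 12, 13 and 15 read 9.35, 8.87 and 9.06. So 3 NEMO IEC-KO mice lay above the highest NEMO FL mouse (8.85) and the other 2 below the lowest (8.61). Ccl20, which epithelium above follicles makes, ranged from 5.63 to 6.16 in NEMO FL mice and from 5.26 to 6.03 in NEMO IEC-KO mice (difference -0.16, 95% interval -0.48 to 0.16, adjusted p = 0.49).

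Among the receptors, Cxcr4 showed the largest difference of the 9 members. It read 6.89, 6.86, 6.77, 6.21 and 6.50 in NEMO FL mice 6 to 10 and 7.16, 7.84, 7.19, 7.56 and 7.57 in NEMO IEC-KO mice 11, 12, 13, 15 and 18. The groups did not overlap. The mean rose from 6.65 ± 0.29 (SD, n = 5) to 7.46 ± 0.29, a difference of 0.82 ± 0.16 (SE) or 1.76-fold, with a 95% interval of 1.39 to 2.24 (limma adjusted p = 0.00174, exact permutation p = 0.00794). Its ligand Cxcl12 did not pass the test in the same mice.

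The receptors that mark follicle-homing and zone-homing lymphocytes did not pass the test. Cxcr5 read 6.22, 6.35, 6.47, 5.49 and 5.44 in NEMO FL mice 6 to 10 and 5.33, 6.12, 5.97, 5.18 and 6.24 in NEMO IEC-KO mice 11, 12, 13, 15 and 18. Both groups thus held high and low mice, and the mean difference was -0.23 (95% interval -0.74 to 0.29, adjusted p = 0.539). Ccr6, the receptor of CCL20, ranged from 4.92 to 5.51 and from 5.21 to 5.64 (difference 0.16, 95% interval -0.12 to 0.44, adjusted p = 0.412). Ccr7, the receptor of CCL19 and CCL21, ranged from 6.46 to 6.72 and from 6.42 to 7.04 (difference 0.09, 95% interval -0.18 to 0.37, adjusted p = 0.647). Of the 4 ligand and receptor pairs in the set, none had both partners called.

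These calls depended on the group given to mouse 10, whose Ikbkg reading lay with the NEMO FL mice. Its mean over 9 neutrophil markers was 4.07, the lowest of the NEMO FL mice. NEMO IEC-KO mice ran from 6.11 to 9.04. With mouse 10 counted as NEMO IEC-KO, 0 of 9 members passed (limma adjusted p of 0.111 for Cxcr4, 0.135 for Ccl22 and 0.595 for Ccl19), and 1807 of 22142 probe sets were called in place of 5628. With mouse 10 left out, 2 of 9 passed, Ccl22 and Cxcr4, where 5237 of 22142 probe sets were called. With sex as a term in the model 3 of 9 passed, with differences of 0.85 for Cxcr4, 0.67 for Ccl22 and 0.59 for Ccl19. That fit called 5695 of 22142 probe sets.

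**Figure D2:**
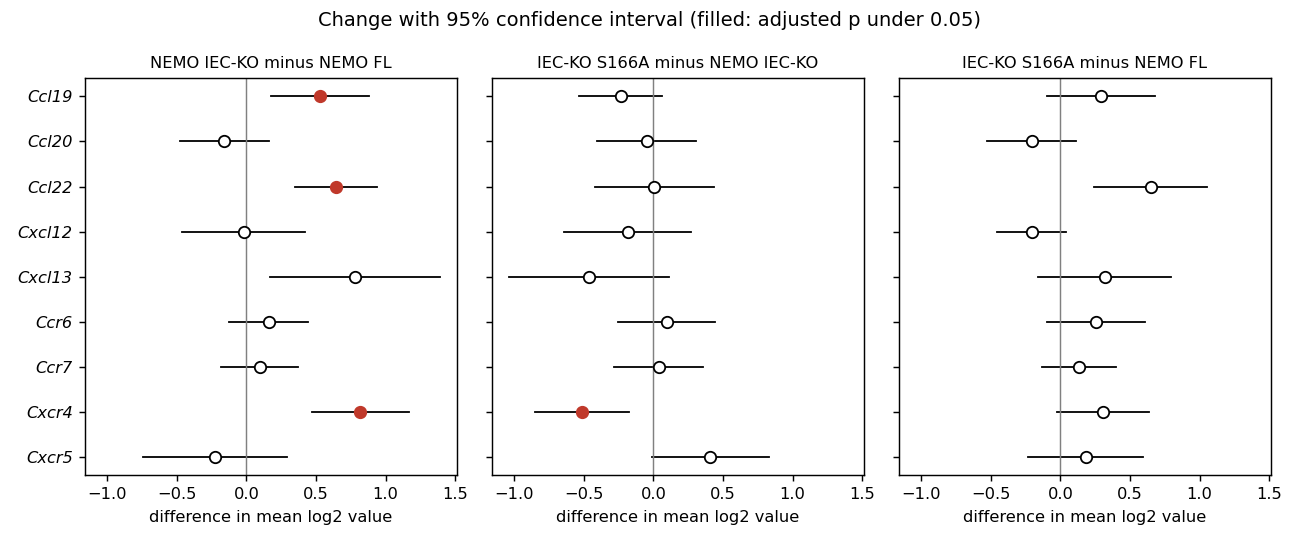
Points give the difference in mean log2 value (horizontal axis) of each of the 9 genes in the 3 comparisons, with 95% confidence intervals from limma, filled where the adjusted p was under 0.05. Cxcr4, Ccl22 and Ccl19 are filled for NEMO IEC-KO against NEMO FL, Cxcr4 for S166A mice against NEMO IEC-KO mice, and none for S166A mice against NEMO FL mice.

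In NEMO IEC-KO mice that also carried the S166A alleles, Cxcr4 was lower than in NEMO IEC-KO mice, while the mean of Ccl22 was nearly equal. Cxcr4 was the only member called, 1 of 9, where 19.2% of all probe sets were called and 9.9% were called lower. It read 7.19, 6.66, 7.17, 7.03 and 6.71 in S166A mice 1 to 5. These values overlapped the NEMO IEC-KO range at its low end, since mice 11 and 13 read 7.16 and 7.19. The difference was -0.51 ± 0.16 (SE), a ratio of 0.701 with a 95% interval of 0.554 to 0.887 (limma adjusted p = 0.0349, exact permutation p = 0.0397).

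This Cxcr4 call was lost when any of 6 mice was left out, with adjusted p-values of 0.0945 without S166A mouse 2, 0.0542 without S166A mouse 4 and 0.0837 without S166A mouse 5. The value was 0.0819 without NEMO IEC-KO mouse 12, 0.077 without mouse 15 and 0.0625 without mouse 18. It was 0.19 with sex in the model (difference -0.42), 0.321 with mouse 10 counted as NEMO IEC-KO and 0.0986 without S166A mice 1 and 2. The difference stayed negative in each of these.

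Ccl22 in S166A mice fell into high and low values. Mice 1, 3 and 4 read 7.09, 7.11 and 7.21, with mouse 4 above the highest NEMO IEC-KO mouse (mouse 12, 7.19) and mice 1 and 3 above the other 4, while mice 2 and 5 read 6.12 and 6.45. The mean of 6.80 ± 0.48 (SD, n = 5) was within 0.01 of that in NEMO IEC-KO mice, with a 95% interval of the difference from -0.42 to 0.43 (limma adjusted p = 0.987). Against NEMO FL mice the difference was 0.65 ± 0.19 (SE), 1.57-fold with a 95% interval of 1.18 to 2.08, with 4 of 5 S166A mice above every NEMO FL mouse. This did not pass across all probe sets (limma adjusted p = 0.353, exact permutation p = 0.0317).

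Cxcl13 in S166A mice read 8.44, 8.54, 8.89, 9.42 and 8.59 in mice 1 to 5, between the other groups. Its mean of 8.78 differed from NEMO IEC-KO mice by -0.46 (95% interval -1.03 to 0.11, adjusted p = 0.264) and from NEMO FL mice by 0.32 (-0.16 to 0.79, adjusted p = 0.609). Ccl19 was also intermediate, at 4.47, 4.22, 4.94, 4.48 and 4.32, with a difference of -0.24 from NEMO IEC-KO mice (adjusted p = 0.268) and of 0.29 from NEMO FL mice (adjusted p = 0.571). For neither gene did the S166A mice differ beyond their spread from either group.

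Cxcr5 and Ccr6 had their highest group means in S166A mice, without passing the test. Cxcr5 read 6.05, 5.96, 6.29, 6.49 and 6.09 in mice 1 to 5, all above the NEMO IEC-KO mean of 5.77, with a difference of 0.41 (95% interval -0.01 to 0.83, adjusted p = 0.169). Ccr6 read 5.47, 5.17, 5.66, 6.01 and 5.14, a difference of 0.09 from NEMO IEC-KO mice (adjusted p = 0.746). Mouse 4 was the highest of the S166A mice for both receptors and for Cxcl13, Cxcl12 and Ccl22.

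The other 3 members gave small differences from NEMO IEC-KO mice. Ccr7 ranged from 6.46 to 7.01 in S166A mice (difference 0.04, adjusted p = 0.896), Ccl20 from 5.31 to 6.04 (difference -0.05, adjusted p = 0.882) and Cxcl12 from 8.42 to 8.86 (difference -0.18, adjusted p = 0.61). In Cxcl12, mouse 4 read 8.86 and the other S166A mice lay between 8.42 and 8.48. The median difference of the 9 members was -0.05, against 0.02 over all probe sets.

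Against NEMO FL mice, 0 of 9 members passed in S166A mice by limma, where 0.0542% of all probe sets were called, 12 of 22142. At an unadjusted p under 0.05, 1 of 9 members (Ccl22) and 2336 of all probe sets passed. The median difference of the members was 0.26 against 0.01 over all probe sets. Cxcr4 differed by 0.31 (95% interval -0.02 to 0.63, adjusted p = 0.495), and all 5 S166A mice lay above the NEMO FL mean. The comparisons share groups with each other, so their values are not independent.

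The order of the group means thus differed between members. Cxcr4, Cxcl13 and Ccl19 were highest in NEMO IEC-KO mice, then S166A mice, then NEMO FL mice. Cxcr4 is the only one of these in which the step between S166A and NEMO IEC-KO mice passed the test, and in none of them did the step between NEMO FL and S166A mice pass. Ccl22 had nearly equal means in both deleted groups and its lowest in NEMO FL mice. Ccr6, Ccr7 and Cxcr5 had their highest mean in S166A mice, and Ccl20 and Cxcl12 in NEMO FL mice, with no neighbours in the order differing beyond their spread.

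Leukocytes, among them the lymphocytes that follow these chemokines, leave the blood by means of adhesion molecules. Of 13 such genes measured 7 rose and 1 fell with loss of NEMO, with a median difference of 0.63. Over all probe sets 11.6% were called higher and 13.8% lower in this comparison, the background for every list count in it. Itgal, the alpha chain of LFA-1, ranged from 5.52 to 6.68 in NEMO FL mice and from 7.09 to 8.68 in NEMO IEC-KO mice (difference 1.87, limma adjusted p = 7.58e-05). Madcam1, the gut vessel ligand of the α4β7 integrin, ranged from 5.23 to 6.44 and from 6.51 to 7.60 (difference 1.39, adjusted p = 0.000376). Itgb2, the partner chain of Itgal, differed by 1.24 and the selectin ligand Selplg by 1.21. The gene that fell was Cd34, with a difference of -1.02 (limma adjusted p = 0.000289). Itga4 (0.23), Fut7 (0.12), Chst4 (0.05), Glycam1 (-0.06) and Chst2 (-0.13) did not pass.

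In S166A mice against NEMO IEC-KO mice, 6 of the 13 adhesion genes were lower and 1 higher, with a median difference of -0.56, where 9.9% of all probe sets were called lower and 9.33% higher. The log2 difference was -1.38 for Itgal (adjusted p = 0.000976), -1.2 for Madcam1 (adjusted p = 0.000462) and -0.68 for Icam1, which binds LFA-1 (adjusted p = 0.00397). The groups did not overlap for these 3 genes, which with the same direction held for 6.6% of all probe sets. The gene called higher was Cd34, with a difference of 0.73 (limma adjusted p = 0.00948). In S166A mice against NEMO FL mice 0 of the 13 passed by limma.

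Of 19 other homing chemokines, receptors and guidance cues, 1 was higher and 1 lower in NEMO IEC-KO mice, with a median difference of 0.10. Ccl28, an epithelial chemokine for IgA plasma cells, ranged from 9.79 to 10.15 in NEMO FL mice and from 9.29 to 9.59 in NEMO IEC-KO mice (difference -0.55, adjusted p = 0.00198), and Ccr9, a gut-homing receptor, differed by 0.58 (adjusted p = 0.0149). The partners of the members, where listed, did not pass: Ccr4, the receptor of CCL22, differed by -0.01 (adjusted p = 0.979) and Ccl17, its other ligand, by 0.03 (adjusted p = 0.928). The group means of Ccr4 ran from 3.56 to 3.63. They lay below the 3.97 that Y chromosome genes reached in mice judged female, so a change in Ccr4 could have been missed. Ccr9 was also near that level, from 3.80 to 4.41 in NEMO FL and from 3.55 to 4.98 in S166A mice. It ran from 4.57 to 5.25 in NEMO IEC-KO mice. Ccl21a, the other CCR7 ligand, differed by 0.58 (limma adjusted p = 0.0871). Its near-identical copies Ccl21b and Ccl21c held the same values as each other (0.55, adjusted p = 0.0992) and are counted separately in this list. Signal may be shared between Ccl21a and these copies. Leaving out 1 mouse at a time gave from 2 to 6 calls in this list, the highest without NEMO IEC-KO mouse 18. In S166A mice against NEMO IEC-KO mice 1 was lower (Ccr9) and 1 higher (Ccl28), with 0 calls without S166A mouse 2 or mouse 5, 4 without NEMO IEC-KO mouse 11, and 5 with sex in the model.

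Among the organisers of lymphoid tissue, 7 of 16 measured genes rose and 1 fell with loss of NEMO, with a median difference of 0.33. Pdpn, a marker of lymphoid stromal cells, ranged from 7.36 to 7.84 in NEMO FL mice and from 8.17 to 8.98 in NEMO IEC-KO mice (difference 1.07, adjusted p = 0.000135). Ltb, a lymphotoxin subunit that induces Cxcl13 and Ccl19 in lymphoid stroma, differed by 0.61 (adjusted p = 0.00663), Il7r by 1.01 and Tnfsf13b, the B cell survival factor BAFF, by 0.71. In S166A mice against NEMO IEC-KO mice 2 of 16 were lower, Pdpn (difference -0.90) and Il7r (difference -0.83), and none was higher, a count near the 9.9% of all probe sets called lower. It was 1 without S166A mouse 2 and 3 without NEMO IEC-KO mouse 11 or mouse 18. Grouping mouse 10 by its genotype field instead left 2 adhesion genes and 0 organisers called in the first comparison. In the second it left 0 of either list. Those fits called 1807 and 1434 of 22142 probe sets.

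**Figure D3:**
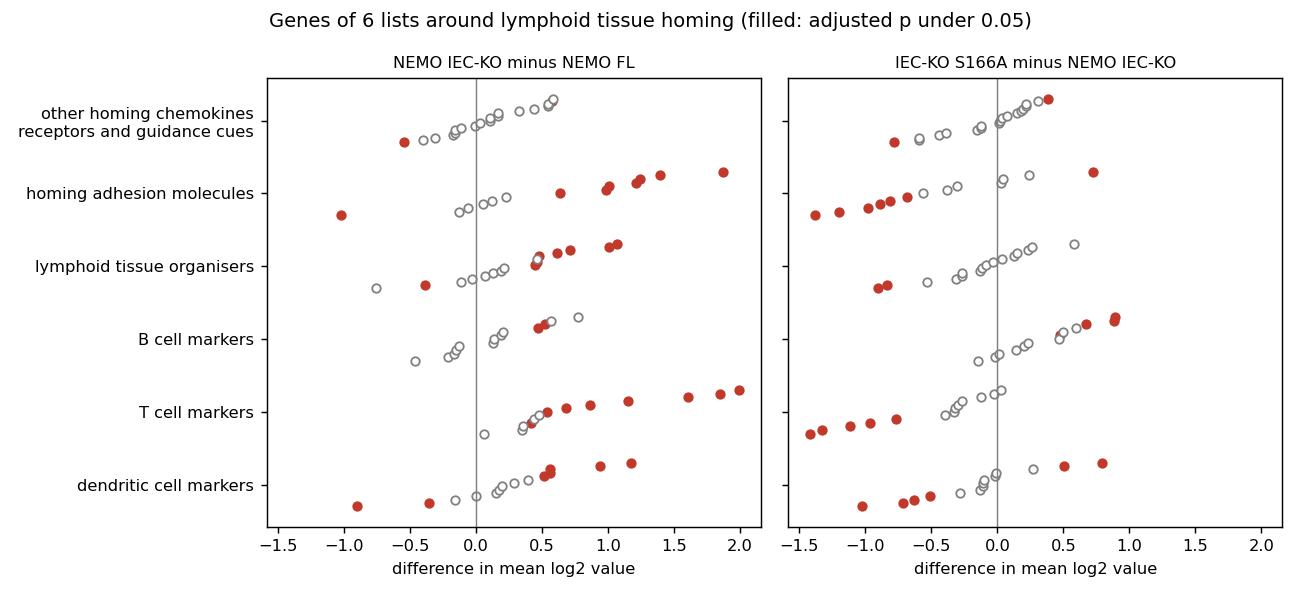
Each point is 1 gene of a list (rows), placed at its difference in mean log2 value (horizontal axis) for NEMO IEC-KO against NEMO FL on the left and S166A against NEMO IEC-KO on the right, filled where the limma adjusted p was under 0.05. Of the homing adhesion genes 8 are filled on the left and 7 on the right, against 2 and 2 of the other homing chemokines, receptors and guidance cues, counts that ran from 2 to 6 and from 0 to 4 with 1 mouse left out.

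Markers of the cells that carry these receptors were counted in the same way. With loss of NEMO, 8 of 13 T cell markers were higher and none lower (median difference 0.53), and 2 of 13 B cell markers were higher and none lower (median 0.13). The B cell count is close to the 11.6% of all probe sets called higher, and it was 0 without NEMO FL mouse 9 or NEMO IEC-KO mouse 13 and 4 without NEMO FL mouse 8. Of 14 dendritic cell markers 5 were higher and 2 lower, and of 9 macrophage and 9 neutrophil markers 6 and 9 were higher and none lower. When mouse 10 was grouped by its genotype field, 2 T cell, 0 B cell, 2 dendritic cell, 1 macrophage and 5 neutrophil markers were called. That fit called 1807 of 22142 probe sets in either direction. The mean log2 level of the T cell list ran from 5.09 to 5.56 in NEMO FL, 5.85 to 6.35 in NEMO IEC-KO and 5.35 to 5.73 in S166A mice. The neutrophil list ran from 4.07 to 4.41, from 6.11 to 9.04 and from 4.27 to 4.71, and its gene S100a8 from 2.48 to 3.33, from 7.89 to 10.48 and from 2.67 to 3.13. The part of these cell types in the higher Cxcr4, Ccl22 and Ccl19 was not tested.

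B cell markers took another order. Their list mean ran from 5.76 to 6.66 in NEMO FL, from 6.11 to 6.69 in NEMO IEC-KO and from 6.48 to 7.33 in S166A mice, with mouse 9 the lowest and mouse 4 the highest of all 15. In S166A against NEMO IEC-KO mice 4 of 13 were higher and none lower, with a median difference of 0.47, against 9.33% of all probe sets called higher. The count was 1 without NEMO IEC-KO mouse 13 or mouse 15 and 6 without S166A mouse 5. Blk, a kinase of the B cell receptor pathway, ranged from 5.46 to 6.27 in NEMO IEC-KO and from 6.40 to 7.21 in S166A mice (difference 0.89, limma adjusted p = 0.0035). Against NEMO FL mice 0 of 13 passed in S166A mice, with a median difference of 0.58.

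The rest of the tissue was read from epithelium and muscle markers in NEMO IEC-KO mice, set against NEMO FL mice. Of 8 epithelium markers none passed in this comparison, with a median difference of -0.03. Of 13 markers of stroma, endothelium and smooth muscle 7 were lower and none higher. List means ran from 9.63 to 10.05 in NEMO FL mice and from 8.44 to 9.38 in NEMO IEC-KO mice, lowest in mouse 18. The groups did not overlap for the muscle genes Acta2, Myh11 (mean 11.48 and 9.48), Des, Tagln and Cnn1, nor for stromal Dcn and Lum. They overlapped for the endothelial genes Pecam1, Cdh5 (mean 7.24 and 7.43), Kdr and Lyve1 and for the collagens Col1a1 and Col3a1. Of 8 markers of follicle-associated epithelium and M cells 4 were higher. They were Tnfaip2, which ranged from 6.17 to 6.88 and from 7.77 to 9.55 (difference 2.14), Pglyrp1 (1.32), Ccl9 (1.14) and Marcksl1 (1.18), which is also in the dendritic cell list. The M cell genes Gp2 (difference 0.09, adjusted p = 0.796) and Spib (0.01, adjusted p = 0.975) did not pass, nor did Scg5 (-0.55, adjusted p = 0.0764). When mouse 10 was grouped by its genotype field, 1 marker of stroma, endothelium and smooth muscle and 0 of follicle-associated epithelium and M cells passed. Over all probe sets 1807 of 22142 were called in that fit.

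Within genotypes the members varied together in part. The mean of each genotype was subtracted from each gene, and Pearson's r was then taken over the 15 mice as a description. The values share the array and the tissue piece of each mouse. Cxcl13 and its receptor Cxcr5 gave r = 0.60, while Cxcl12 and Cxcr4 gave 0.22, Ccl20 and Ccr6 gave -0.11, and Ccl19 and Ccr7 gave -0.32. Of the 36 pairs of members the highest r was 0.77, for Ccl22 with Cxcr4 and for Ccl20 with Ccr7, and the lowest was -0.66, for Cxcl12 with Ccr7.

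Against the list means, Ccr6 followed the B cell list most closely, with r = 0.72. Cxcr5 followed the homing adhesion list (0.78), the dendritic cell list (0.75) and the list of follicle-associated epithelium and M cells (0.73). Its r with the B cell list was 0.71. Cxcr4 followed the organiser list (0.89) and the dendritic cell list (0.84) most closely, and Cxcl13 the dendritic cell list (0.81). Cxcl12 rose and fell with the list of stroma, endothelium and smooth muscle (0.82). Ccr7 ran opposite to the macrophage list (-0.82), and Ccr7 and Ccl20 ran opposite to the list of stroma, endothelium and smooth muscle (-0.73 and -0.70). NEMO IEC-KO mouse 18, lowest in that list, was also the lowest of all 15 mice for Cxcl12 and the highest for Ccr7. Within their genotypes, Ccr7 and Ccl20 were highest in NEMO IEC-KO mouse 18 and in S166A mice 1 and 2. The arrays of these mice had the narrowest spread of values (interquartile range 3.22, 3.06 and 3.01). The part of array spread in these r was not tested.

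**Figure D4:**
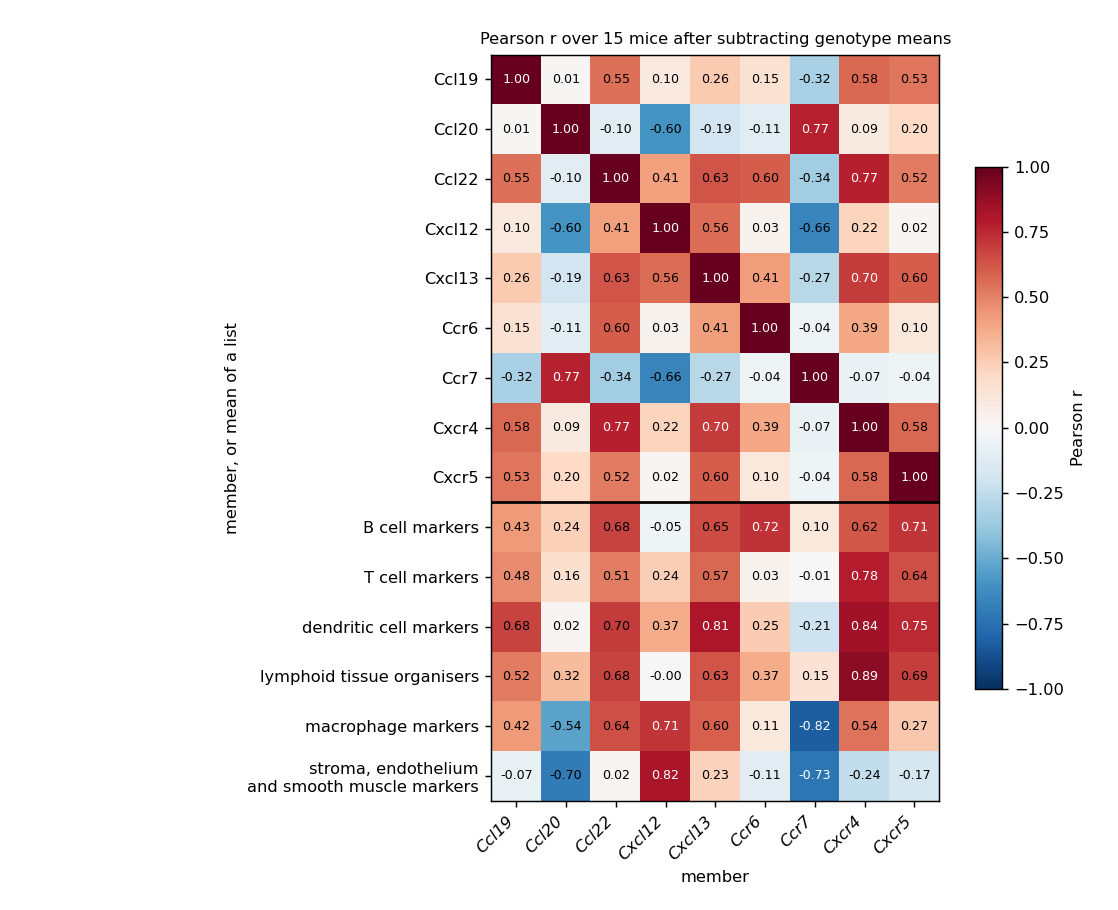
Each cell gives Pearson's r over 15 mice, after subtraction of genotype means, between a member (columns) and another member or the mean of a marker list (rows), on a colour scale from -1 to 1. Cxcl13, Cxcr4, Cxcr5 and Ccl22 have r of 0.52 or more with each other, while Ccl20 and Ccr7 pair with each other at 0.77 and run opposite to Cxcl12.

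The genes most like each member by the same measure, out of 19494 symbols, are given as a description. For Cxcr4 they were Il18r1 (r = 0.89), Lax1 (0.89) and Fli1 (0.86), and for Cxcl13 Fli1 (0.89), Vcam1 (0.84) and Swap70 (0.83). For Ccl22 they were H2-Oa (0.90), Cd180 (0.88) and Grap2 (0.87), and for Cxcr5 Frmpd4 (0.89), Btla (0.87) and B4galnt1 (0.86). H2-Oa, Cd180 and Btla are known from B cells and other lymphoid cells, and Fli1 is a transcription factor of blood and endothelial cells. For Cxcl12 they were Ctsh (0.96), Stx12 (0.96) and Gask1b (0.94), for Ccr7 Adam1b (0.95), Crebzf (0.90) and Fgf15 (0.90), and for Ccl19 Abcf1 (0.89), Rmdn3 (0.89) and Pias4 (0.88). Ccl20 was nearest to Tas2r144 (0.91), Nkx2-9 (0.89) and Olfr611 (0.89), and Ccr6 to Zkscan8 (0.87), Xrra1 (0.86) and Cttnbp2 (0.86). These genes are the top ranks of a search over all symbols, and their r is not a test.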

How the data were processed

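The authors hybridised colon RNA to Clariom S mouse arrays with the WT PLUS kit. The deposited table holds 1 value per probe set and mouse, here read as log2 from its range (1.69 to 13.59), with the normalization and the log base not given in the sources used here. Array quality was checked by the authors in the Expression Console or the Transcriptome Analysis Console. Genes were named from the platform annotation, and of 22142 probe sets 19527 had 1 symbol and 2615 had none. Each pair of genotypes was fitted over all probe sets with limma 3.58.1 (lmFit, eBayes) and adjusted by Benjamini-Hochberg, and members were also tested by exact permutation over 252 assignments of mice. The authors used littermates, but the litter of each mouse is not given in the sources used here and mouse numbers are a running index, so litter could not enter the fits. Array number limits the precision, with 5 mice per group. In simulated data with known changes the fit was tested before use.

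Named genes were all 9 members, Ikbkg, up to 4 genes per list and comparison with the largest difference among those called without overlap, and 3 genes nearest to each member, with partners of members added by name. Some other listed genes are also named, among them ones that went the other way or did not pass. The members and lists were chosen with earlier results of these data known. Listed genes without a named probe set were not analysed here.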

Additional observations from a re-analysis of the deposited data

Results flagged for a closer look

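In 2 of 30 groups tested, a mouse stood far from the other 4 of its genotype by Dixon's criterion, which chance alone meets in about 1 of 20 groups. Cxcl13 in NEMO FL mouse 9 read 7.58, where the nearest of the others read 8.54. Cxcl12 in S166A mouse 4 read 8.86, where the nearest of the others read 8.48. Mouse 9 was also the lowest NEMO FL mouse in the B cell, T cell, dendritic cell, macrophage, homing adhesion, organiser and epithelium lists. The list of follicle-associated epithelium and M cells was lowest in it too, while that of stroma, endothelium and smooth muscle was highest. Mouse 4 was the highest of its group in the B cell list and in the list of stroma, endothelium and smooth muscle. The part of these cell types in the values was not tested.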

How the results depend on the processing

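The label of mouse 10 mattered most, although by Ikbkg this mouse lay with the NEMO FL mice. Counted as NEMO IEC-KO, mouse 10 left 0 of 9 members called in NEMO IEC-KO against NEMO FL and 0 in S166A against NEMO IEC-KO. It turned the Ikbkg difference of the latter to -0.062. Those fits called 1807 and 1434 of 22142 probe sets. With 1 mouse left out the counts were 2 to 3 in the first comparison, 0 to 1 in the second and 0 in the third. In the second, 0 members passed with a sex term, without both S166A mice 1 and 2 (chosen after seeing the data), with a fold over 1.5 and unadjusted p under 0.05, and at an adjusted p under 0.01. Of 22142 probe sets, 4030 passed with the sex term, 2438 without both mice and 2678 by the fold rule. In the third, 1 member (Ccl22) passed with a fold over 1.5 and unadjusted p under 0.05, as did 228 of 22142 probe sets. Cxcl13 in the first passed in 4 of 20 settings, among them a joint fit of all 3 groups (adjusted p = 0.0429), median centring (0.047) and a filter at the median (0.0454). Ccl19 lost its call with array weights (0.0682). It lay below the filters at percentile 25 and at the median, so those fits held no value for it.

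The signs that turned were of differences near 0. In the first comparison Cxcl12 was 0.011 with array weights and 0.0043 with median centring, and from -0.18 to 0.14 with 1 mouse left out. In the second, Ccl20 was 0.15 with a sex term and from -0.16 to 0.041 with 1 mouse left out. Ccl22 was -0.022 with median centring, -0.00073 after quantile normalization and from -0.098 to 0.18 with 1 mouse left out. Ccr6 ran from -0.035 to 0.18 and Ccr7 from -0.035 to 0.13 with 1 mouse left out. Without both S166A mice 1 and 2, Ccr7 was -0.13 in the second comparison and -0.032 in the third. The third was not fitted with a sex term, because mouse 10 is its only male NEMO FL mouse and it has no female S166A mouse. Each member had 1 probe set, so no other probe set could be tried. No paired analysis was possible because the litter of each mouse is not given in the sources used here and no mouse number recurs across groups.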
